A study of Mus musculus with 32 samples.

Results

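Genes of cysteine, asparagine and serine metabolism and of the amino-acid stress response were followed in cultured YUMM3.3 cells, a Braf mutant mouse melanoma line, exposed to Activin-A, a ligand of the TGF-β family, to IFN-γ, a cytokine of T and NK cells, or to both. These 10 genes (Cth, Cbs, Asns, Chac1, Trib3, Atf4, Ddit3, Psat1, Phgdh and Shmt2), all found by symbol among the 12451 genes of the deposited count table, were chosen by the measured pattern of one of them: Cth was the 1 gene whose level with both factors at 12 hrs was called as different from the sum of the single-factor effects. The values of Cth are therefore given as a description without a test, and the question put to the data was whether the other members shared that pattern. The rule gave the members by name, so no threshold separates them from other genes.

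The cells were seeded in 6-well plates and left untreated, or given Activin-A (40 ng/ml), IFN-γ (20 ng/ml) or the combination, and were harvested after 4 or 12 hrs. Each of the 8 groups held 4 wells of this cell line, which makes 32 libraries. All groups were of the same line, grown per the labels in a serum-containing medium, the labels of these wells give no allele or transgene, and they name neither separate passages nor separate days. The p-values thus measure the spread between wells, which may be technical. Bulk RNA barcoding and sequencing (BRB-seq) counted reads per gene. The level of a gene is given as counts per 1000000 (CPM), scaled between wells by the trimmed mean of M-values, and a change as log2FC. Differential expression was tested in edgeR with quasi-likelihood fits and p-values adjusted after Benjamini and Hochberg over all genes tested at that time, and a gene was called at an adjusted p under 0.05. In bulk wells, fewer cells transcribing a gene and less RNA per cell cannot be told apart.

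Total counts ran from 654539 to 1455074 per well with a median of 988020, so that 3 counts, the limit that a count of 0 allows, stood for 2.06 to 4.58 CPM (counting error only). Melanocyte markers summed to 326 to 459 CPM over the 32 wells, with Pmel and Tyrp1 as the leading ones at medians of 122 and 91.9 CPM. Of the leukocyte markers Ptprc and Cd68 summed to at most 15.1 CPM, the other leukocyte markers and the endothelial and keratinocyte markers of the marker lists were not analysed here, and the fibroblast markers Col1a1, Pdgfra and Dcn summed to 34.6 to 75.1 CPM. One library stood apart: Activin-A replicate 1 at 4 hrs differed from the other wells of its group by a chi-squared of at least 2.45 per gene, against at most 1.54 for the other pairs of wells. Leaving it out changed no call among the member values given here, the largest move being that of Trib3 between 12 and 4 hrs in Activin-A wells, from 1.88 to 1.68 on the log2 scale.

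When amino acids run short, uncharged tRNAs activate the kinase GCN2, which phosphorylates the initiation factor eIF2, slows translation in general and favours translation of the transcription factor ATF4. Stress of the endoplasmic reticulum reaches the same factor through PERK. ATF4 then drives genes for amino-acid synthesis, uptake and tRNA charging, often together with a C/EBP partner at composite sites named C/EBP-ATF response elements. Cysteine can be made from methionine and serine by transsulfuration, in which CBS joins homocysteine to serine and CTH splits the product cystathionine to release cysteine. PHGDH and PSAT1 act in the synthesis of serine, and SHMT2 converts serine to glycine in mitochondria.

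Promoter windows of 300 bases (250 before to 50 after the start) were taken from RefSeq on GRCm38.p6, a build other than the GRCm39 named in the submitters' processing notes. Windows were found for 9 of the 10 members, 10 windows in all, Cth being the member without an entry. The core TGATGNAA of the C/EBP-ATF element, searched on both strands, was present in the windows of 3 of these 9 genes, Asns, Chac1 and Trib3, and in 3.97% of all 32851 windows. The stretches around those matches are shown for every member with a match. Capitals mark the match, which begins at position -23 from the start in Asns, -193 in Chac1 and 15 in Trib3, where it lies downstream of the start and is given with 11 bases on either side.
Asns, chr6:7693210-7693292, minus strand: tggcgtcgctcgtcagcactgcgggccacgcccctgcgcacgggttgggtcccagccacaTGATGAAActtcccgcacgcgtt
Chac1, chr2:119350992-119351116, plus strand: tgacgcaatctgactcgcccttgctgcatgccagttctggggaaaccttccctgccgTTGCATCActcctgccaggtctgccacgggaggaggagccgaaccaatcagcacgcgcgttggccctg
Trib3, chr2:152344028-152344057, minus strand: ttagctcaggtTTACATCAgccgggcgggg
In Chac1 and Trib3 the match reads on the opposite strand of the gene. The extended Smad box CAGACA was found in Cbs and in Psat1 (both at -170) and in 21.0% of all windows. These matches are descriptions of letters in a window, and no binding was measured.

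Cth, which releases cysteine, stood at 23.7, 15.2, 20.7 and 17.9 CPM in the untreated wells at 4 hrs and at 19.7, 24.2, 15 and 21.7 CPM with Activin-A. With IFN-γ it was 18.3, 16.6, 20.3 and 17.2 CPM, and with both factors 27.1, 32.6, 23.6 and 18.9 CPM. The 4 groups overlapped at 4 hrs, with only 14 to 38 counts behind each value.
At 12 hrs the untreated wells held 37.0, 41.6, 41.6 and 47.8 CPM and the Activin-A wells 67.1, 71.6, 72.4 and 73.5 CPM. The IFN-γ wells held 64.9, 54.8, 54.4 and 63.8 CPM and the wells with both factors 34.7, 54.4, 55.8 and 55.4 CPM. Each single factor thus gave levels above every untreated well, and the wells with both factors lay below every Activin-A well and overlapped with the untreated and the IFN-γ wells. The overlap with untreated wells came from replicate 1 of both factors alone, since its other wells lay above every untreated well. In order of the group means, Activin-A (71.1 ± 2.84 CPM, SD, n = 4) stood above IFN-γ (59.5 ± 5.66 CPM), both factors (50.1 ± 10.3 CPM) and untreated (42.0 ± 4.46 CPM). The wells of both factors overlapped with those of either neighbour in this order, and IFN-γ did not overlap with Activin-A.

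The log2FC of Cth at 12 hrs was 0.77 (SE 0.14) with Activin-A and 0.52 (SE 0.15) with IFN-γ, while both factors differed from Activin-A by -0.50 (SE 0.14) and from IFN-γ by -0.25 (SE 0.15). The summed fibroblast markers differed between the same wells at 12 hrs, at 53.9 to 73.4 CPM with Activin-A, 50.9 to 63.8 CPM untreated, 45.9 to 46.9 CPM with IFN-γ and 34.6 to 44.4 CPM with both factors, so that Activin-A wells lay above those with both factors without overlap, as for Cth. Of the 2 tested markers Col1a1 was called lower there (log2FC -0.80, adjusted p = 0.000434 by edgeR) and Pdgfra was not (-0.52, adjusted p = 0.429). Untreated and IFN-γ wells were ordered otherwise than for Cth, Dcn was at 0 in all untreated wells at 12 hrs, and the part of these markers in the result was not tested. If the effects had added on the log2 scale, the wells with both factors would have stood at 102 CPM. The interaction, the difference of both factors from that sum, was -1.02 on the log2 scale (SE 0.21). At 4 hrs the interaction had the other sign, 0.50 (SE 0.32), with log2FC values of 0.02 (SE 0.23) for Activin-A and -0.12 (SE 0.24) for IFN-γ, both of which changed sign when single wells were left out. With replicate 1 of the wells with both factors left out, the low one of its group at 34.7 CPM, the interaction at 12 hrs was -0.88 and the difference of both factors from IFN-γ -0.10.

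Cbs, the enzyme before CTH in transsulfuration, was at or under the counting limit in every well. It had 11 counts over all 32 wells, 0 in 23 of them and at most 2 in any, so no fold change is given for it. The filter on low counts left Cbs out of the tests given here, and only the alternatives without that filter fitted it. The wells with a count stood at 0.658 to 2.18 CPM. The 8 other members passed that filter at both times. Where at least 10 counts were asked of every well, Trib3 and Chac1, low at 4 hrs, dropped out there and between the times.

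**Figure D1:**
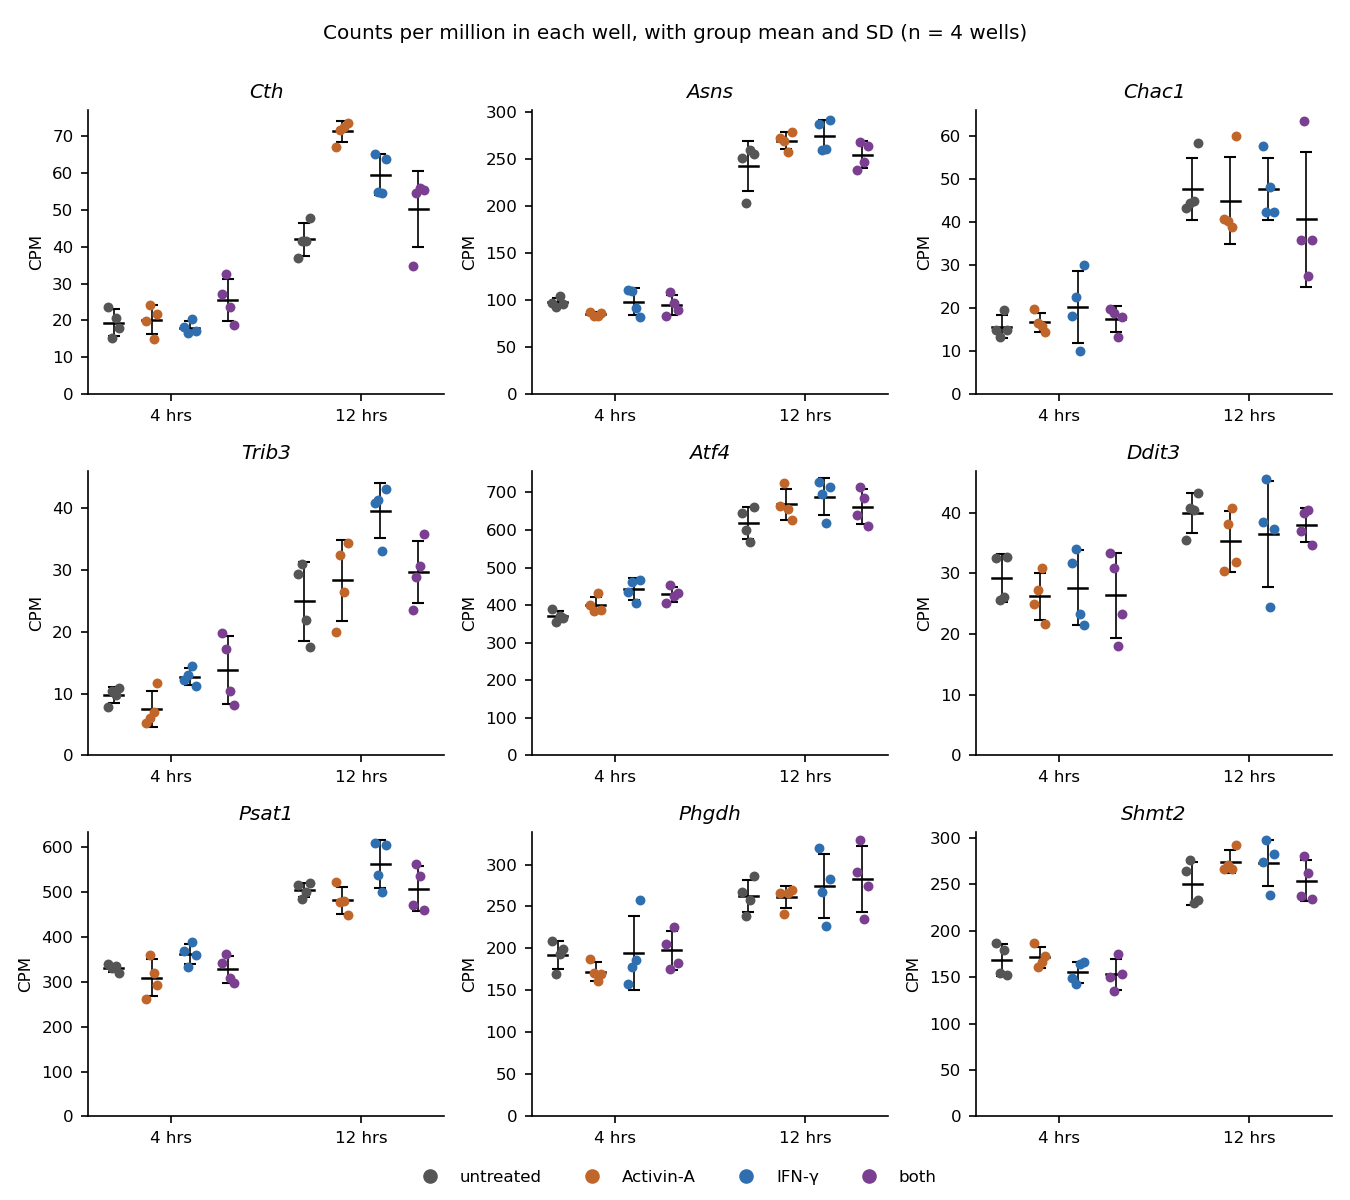
Levels of Cth and of the 8 other detected members in CPM (vertical axis, linear, from 0) for the 4 treatments at 4 and 12 hrs. Points are wells, bars the group mean and SD (n = 4). Cth at 12 hrs falls from 71.1 CPM with Activin-A to 50.1 CPM with both factors, and the step from 4 to 12 hrs is larger than the differences between treatments in Asns and Atf4.

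The interaction was then read in the 8 other members, which the rule did not choose by it. At 12 hrs 0 of the 8 were called. Across all 8971 genes tested the call went to 1 gene (0.0111%), the Cth by which the set was chosen, 612 genes had an unadjusted p under 0.05, and DESeq2 called 0. At 4 hrs 0 of the 8 members and 0 of 9137 genes (0%) were called, with 505 at an unadjusted p under 0.05 and 0 called by DESeq2. Leaving out genes with low counts mattered for this count, since without a filter 8 genes were called at 12 hrs and 1 at 4 hrs, none of them among the 8 members.

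Trib3, a pseudokinase that feeds back on ATF4, was the member nearest to Cth in size. Its untreated wells at 12 hrs held 29.3, 31.0, 21.9 and 17.5 CPM and its Activin-A wells 20.0, 32.5, 26.5 and 34.3 CPM. Its IFN-γ wells held 40.9, 41.4, 33.1 and 43.1 CPM and its wells with both factors 23.5, 28.9, 30.6 and 35.8 CPM. The IFN-γ wells lay above every untreated well, and those with both factors overlapped with all other groups. The interaction was -0.53 (95% interval -1.09 to 0.03, adjusted p = 0.769 by edgeR), an interval that holds 0. At 4 hrs it was 0.50 (95% interval -0.43 to 1.43), with 4 to 20 counts per well, and ran from 0.30 to 0.80 with single wells left out.

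Asns, which makes asparagine from aspartate and glutamine, stood at 251, 204, 260 and 256 CPM in untreated wells at 12 hrs and at 272, 269, 258 and 279 CPM with Activin-A. It stood at 287, 260, 261 and 292 CPM with IFN-γ and at 238, 269, 247 and 264 CPM with both factors. The groups overlapped, with the lowest untreated well as the low end of all 16. Its interaction was -0.27 (95% interval -0.48 to -0.06), with an unadjusted p of 0.0137 and an adjusted p of 0.574 by edgeR. At 4 hrs it was 0.15 (95% interval -0.18 to 0.47), and 0.052 without IFN-γ replicate 4 or 0.073 without replicate 2 of both factors.

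Atf4, the transcription factor itself, held 569 to 661 CPM in untreated wells at 12 hrs, 626 to 725 CPM with Activin-A, 618 to 728 CPM with IFN-γ and 611 to 714 CPM with both factors. All 4 groups overlapped. The interaction of Atf4 was -0.17 at 12 hrs (SE 0.09, adjusted p = 0.731 by edgeR) and -0.17 at 4 hrs (SE 0.10, adjusted p = 0.927 by edgeR). Its mRNA level does not show how much ATF4 protein was made, since the factor is controlled largely in translation.

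Among the remaining members, the interaction at 12 hrs was -0.22 in Shmt2 (SE 0.11), -0.12 in Chac1 (SE 0.25), -0.09 in Psat1 (SE 0.09), 0.05 in Phgdh (SE 0.11) and 0.23 in Ddit3 (SE 0.25). With single wells left out, that of Psat1 ran from -0.15 without replicate 2 of both factors to -0.044 without Activin-A replicate 1, and that of Ddit3 from 0.10 without IFN-γ replicate 3 to 0.36 without IFN-γ replicate 2, while those of Chac1 (-0.42 to 0.035) and Phgdh (-0.036 to 0.13) changed sign. Chac1 encodes an enzyme that breaks down glutathione, and Ddit3 encodes CHOP, a transcription factor of prolonged stress. Of the 8 members 6 lay below 0 and 2 above, with a median of -0.14 against -0.01 over all genes tested. An unadjusted p under 0.05 was found for 3 members (Asns, Shmt2 and Atf4), against 612 of all 8971 genes. The 95% intervals of 5 of the 8 members held 0 at 12 hrs, and those of all 8 did at 4 hrs. No member was tested against Cth, since a value picked as the 1 call among all genes tends to be overstated.

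**Figure D2:**
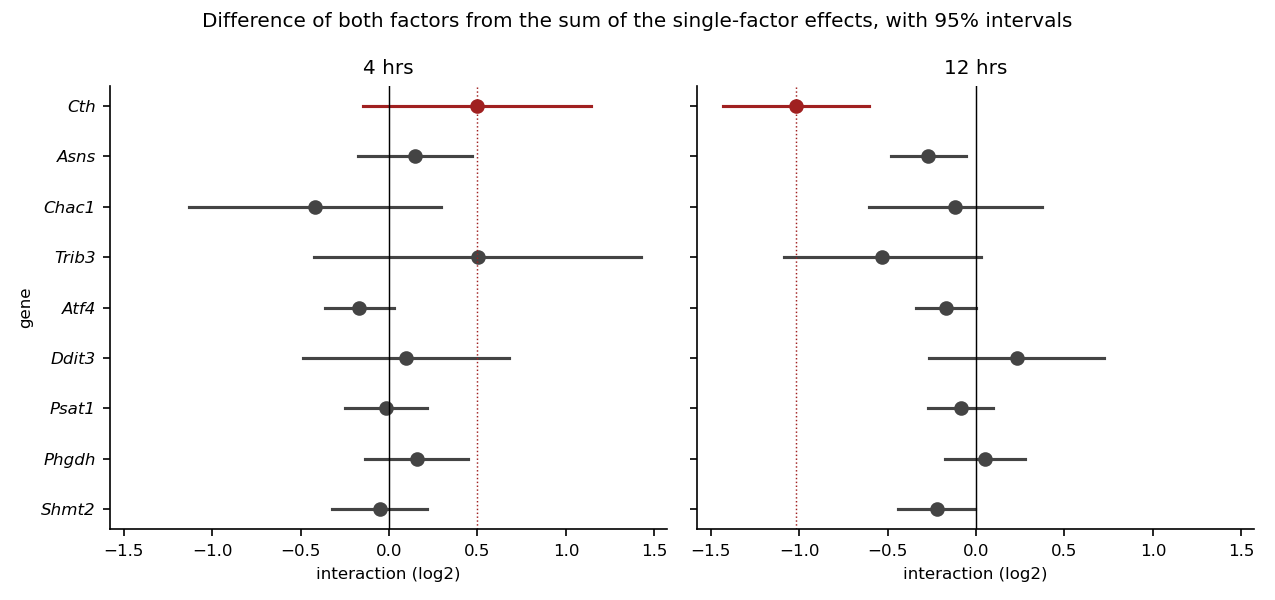
Interaction of Activin-A and IFN-γ on the log2 scale (horizontal axis) for each gene at 4 hrs (left) and 12 hrs (right). Points are fitted values, lines 95% intervals, the dotted line the value of Cth, 0.50 at 4 hrs and -1.02 at 12 hrs. The line of Cth marks the gene chosen by this value and is no test of the others. At 12 hrs the intervals of 5 of the 8 other genes hold 0.

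The effects of the single factors were read in the same 8 members, too few for counts of 0 or 1 to be told apart from the share of all genes called. With Activin-A 0 of the 8 were called at 4 hrs (background 1.64% of all genes, either direction) and 0 at 12 hrs (2.41%), by edgeR and by DESeq2. None had an unadjusted p under 0.05 at 4 hrs (1028 of 9137 genes did) and 1, Asns, did at 12 hrs (1017 of 8971 genes). Its log2FC was 0.16 at 12 hrs (SE 0.08, adjusted p = 0.375 by edgeR) and -0.19 at 4 hrs (SE 0.11), the former 0.087 without untreated replicate 2. That of Trib3 at 4 hrs was -0.37 (SE 0.35), with -0.18 without Activin-A replicate 1 and -0.68 without replicate 4. Atf4 and Shmt2 had a log2FC of 0.12 each at 12 hrs, with SE 0.06 and 0.08, that of Atf4 being 0.071 without Activin-A replicate 2. Over the 8 members the log2FC ran from -0.37 to 0.12 at 4 hrs and from -0.17 to 0.16 at 12 hrs, against the 0.77 of Cth.

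With IFN-γ 1 of the 8 members was called at each time, against 5.06% of all genes at 4 hrs and 9.25% at 12 hrs. At 4 hrs this was Atf4, at 390, 355, 371 and 366 CPM in untreated and 436, 462, 405 and 467 CPM in IFN-γ wells. The 2 groups did not overlap, and the log2FC was 0.27 (SE 0.07, adjusted p = 0.00884 by edgeR). The call was lost without replicate 4 of the IFN-γ wells (adjusted p = 0.0552 by edgeR). At 12 hrs the log2FC of Atf4 was 0.16 (SE 0.06, adjusted p = 0.0905 by edgeR).

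At 12 hrs the called member was Trib3, with the well values given above and a log2FC of 0.63 (SE 0.19, adjusted p = 0.0177 by edgeR). The DESeq2 test did not call it (log2FC 0.64, adjusted p = 0.126), nor did edgeR without untreated replicate 3 (0.0633) or 4 (0.0990) or without IFN-γ replicate 2 (0.0529) or 4 (0.0799), adjusted p-values in each case. Its base was 15 to 52 counts per well in these groups. Psat1 and Asns had a log2FC of 0.16 (SE 0.06, adjusted p = 0.111 by edgeR) and 0.19 (SE 0.08, adjusted p = 0.114 by edgeR), that of Asns falling to 0.11 without untreated replicate 2. Without IFN-γ replicate 3 Atf4 and Psat1 were called as well (adjusted p = 0.0349 and 0.0400 by edgeR). At 4 hrs Chac1 had a log2FC of 0.47 (SE 0.25, adjusted p = 0.428 by edgeR), its IFN-γ wells running from 10.2 to 30.1 CPM, and of 0.21 without IFN-γ replicate 4.

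When Activin-A was added to IFN-γ, 0 of the 8 members were called at 4 hrs (background 0.810%) or at 12 hrs (1.03%), by either tool. An unadjusted p under 0.05 was found for 0 and 2 members, against 850 of 9137 and 921 of 8971 genes. The 2 were Trib3, with a log2FC of -0.42 (SE 0.19, adjusted p = 0.420 by edgeR), and Psat1, with -0.15 (SE 0.06, adjusted p = 0.396 by edgeR). Asns stood at -0.11 (SE 0.08). Cth had -0.25 at 12 hrs and 0.52 (SE 0.23) at 4 hrs. There Psat1 had -0.14 (SE 0.08), and from -0.19 to -0.090 with single wells left out.
When IFN-γ was added to Activin-A, 0 of the 8 were called at 4 hrs (6.07%) or 12 hrs (9.62%), by either tool. An unadjusted p under 0.05 was found for 1 and 0 members, against 1411 of 9137 and 1776 of 8971 genes. The largest difference was that of Trib3 at 4 hrs, 0.87 (SE 0.32, adjusted p = 0.114 by edgeR), with wells at 5.27, 6.06, 7.06 and 11.8 CPM for Activin-A and at 19.8, 17.2, 10.4 and 8.09 CPM for both factors. These groups overlapped, and Trib3 was called without Activin-A replicate 4 (adjusted p = 0.0435 by edgeR) or without replicate 4 of both factors (0.0459). At 12 hrs Trib3 stood at 0.10 (SE 0.21) in this comparison, and from -0.059 to 0.20 with single wells left out, while Cth stood at -0.50.

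More members were called between the 2 times than for any factor. Between 4 and 12 hrs, 7 of the 8 members were called higher and 0 lower in untreated wells, against 2.33% of all 9332 genes higher and 2.57% lower. The same count, 7 higher and 0 lower, was found in Activin-A wells (3.33% higher, 3.63% lower), in IFN-γ wells (4.84% higher, 3.57% lower) and in wells with both factors (3.69% higher, 3.42% lower). In each the member not called was Ddit3. The study gives a single seeding density for both times. Whether the schedules of seeding, medium change and harvest were matched between the times is not given in the sources used here. Time in culture, handling and, in treated wells, time of treatment thus cannot be told apart. Totals ran from 654539 to 1455074 at 4 hrs and from 803370 to 1285540 at 12 hrs. In wells with both factors the summed fibroblast markers lay at 44.0 to 68.1 CPM at 4 hrs and 34.6 to 44.4 CPM at 12 hrs. There 1 of the 2 tested markers was called lower, and 0 were called in each other treatment. Their part in the result was not tested. The untreated-well comparison was planned, and its repeats in the treated wells were added after its result was seen.

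In untreated wells Asns went from 97.6, 93.2, 104 and 96.2 CPM at 4 hrs to the 204 to 260 CPM given above, with no overlap. The log2FC was 1.31 (SE 0.09, adjusted p = 2.15e-20 by edgeR) in untreated, 1.67 in Activin-A, 1.49 in IFN-γ wells and 1.43 with both factors. The Activin-A effect on Asns was 0.36 higher at 12 than at 4 hrs (SE 0.13, adjusted p = 0.726 by edgeR).

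Chac1 went from 14.9, 13.3, 19.6 and 14.9 CPM to 43.2, 44.3, 44.8 and 58.4 CPM in untreated wells, which did not overlap. Its log2FC was 1.59 (SE 0.22, adjusted p = 5.77e-08 by edgeR) there and 1.13 to 1.39 in the treated wells. Trib3 went from 7.91, 10.5, 9.79 and 10.9 CPM to 17.5 to 31.0 CPM. The log2FC of Trib3 was 1.39 there (edgeR adjusted p = 0.000137, SE 0.26), and its values in the treated wells ran from 1.11 to 1.88. Asns, Chac1 and Trib3 had the largest rises among the tested members in untreated wells, and their windows hold the C/EBP-ATF core shown above. A link between the core and the rise was not tested, and Cth, which also rose, had no window to search.

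Atf4 rose by a smaller step, from 355 to 390 CPM to 569 to 661 CPM in untreated wells, with a log2FC of 0.74 (SE 0.07, adjusted p = 3.64e-15 by edgeR) and 0.64 to 0.74 over the 4 treatments. Ddit3 went from 32.5, 25.7, 26.1 and 32.7 CPM to 35.4, 40.7, 40.5 and 43.2 CPM. Its untreated wells did not overlap, yet its log2FC of 0.40 to 0.54 over the 4 treatments was not called in any of them (adjusted p = 0.0699 to 0.200 by edgeR), and with both factors it was called once replicate 1 at 4 hrs was left out (adjusted p = 0.0413 by edgeR).

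The 3 members of serine metabolism were each called higher in untreated wells. Psat1 went from 339, 330, 334 and 319 CPM to 516, 484, 500 and 519 CPM in untreated wells (log2FC 0.61, SE 0.07, adjusted p = 1.37e-09 by edgeR). Phgdh went from 208, 169, 194 and 199 CPM to 267, 239, 258 and 286 CPM (log2FC 0.44, SE 0.10, adjusted p = 0.00115 by edgeR). Shmt2 went from 187, 155, 180 and 153 CPM to 264, 276, 230 and 233 CPM (log2FC 0.58, SE 0.09, adjusted p = 4.80e-07 by edgeR). None of these groups overlapped. Over the 4 treatments the log2FC ran from 0.61 to 0.68 in Psat1, from 0.44 to 0.60 in Phgdh and from 0.58 to 0.83 in Shmt2.

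Cth itself had a log2FC between 4 and 12 hrs of 1.09 (SE 0.19) in untreated wells, 1.85 in Activin-A wells, 1.74 in IFN-γ wells and 0.97 with both factors. Its effect of Activin-A was 0.76 higher at 12 than at 4 hrs (SE 0.27) and that of IFN-γ 0.65 higher (SE 0.28). Whether Activin-A alone or IFN-γ alone changed the time step of the 8 other members was tested directly, and for the combination this was not tested. For the Activin-A effect 0 of the 8 were called (background 0.0214%). An unadjusted p under 0.05 was found for 1 member, Asns, and for 569 of all 9332 genes. For the IFN-γ effect 0 members were called (background 0.579%), and 689 of 9332 genes had an unadjusted p under 0.05. Among the members 1 did, Shmt2 (0.25, SE 0.12, adjusted p = 0.665 by edgeR). DESeq2 also called 0 in each.

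**Figure D3:**
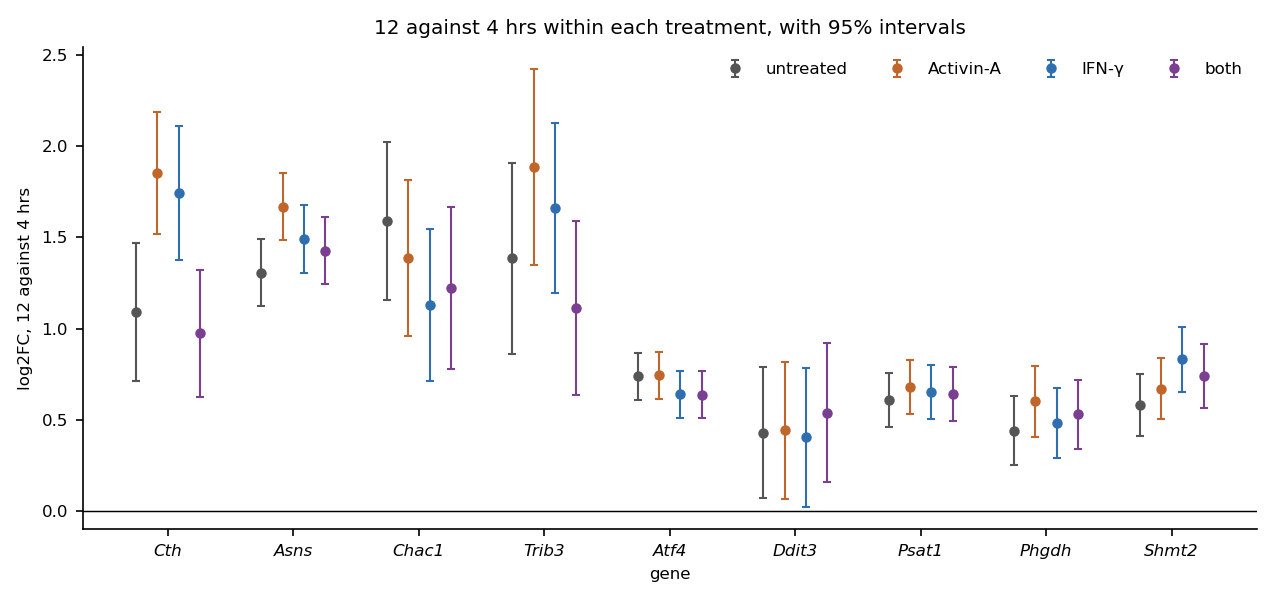
Change from 4 to 12 hrs as log2FC (vertical axis) for each gene, within each of the 4 treatments. Points are fitted values and bars 95% intervals. The 4 treatments lie close together in Atf4 (0.64 to 0.74) and Psat1 (0.61 to 0.68). They spread from 0.97 to 1.85 in Cth, the gene chosen by its pattern, from 1.11 to 1.88 in Trib3 and from 1.13 to 1.59 in Chac1.

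Further genes of these pathways were read from 7 lists, 120 genes in all, of which 115 were matched by symbol. In untreated wells, cytosolic aminoacyl-tRNA synthetases, which load amino acids onto tRNA, were higher at 12 hrs in 13 of the 20 tested and lower in 0, with a list median of 0.43 against 0.00 over all genes, of which 2.33% were called higher and 2.57% lower. They were led by Cars (log2FC 0.89), Nars (0.77) and Mars (0.69). Within single treatments 12 to 14 of the 20 were called higher, against 2.33% to 4.84% of all genes. In all 4 treatments at once 11 of the list were called higher, and the share of all genes for this was not taken. Of 10 amino-acid transporters 5 were higher and 0 lower, led by the glycine carrier Slc6a9 (1.64), the cationic carrier Slc7a1 (0.65) and the large neutral carrier Slc7a5 (0.61), with a median of 0.38. Of 13 ATF4-linked regulators 5 were higher and 0 lower, led by Nupr1 (0.85), Jdp2 (0.70) and Atf5 (0.56), with a median of 0.51. Jdp2 kept its call only without untreated replicate 3 of either time (adjusted p up to 0.118 by edgeR in the 6 other fits that left out 1 well) and was not called by DESeq2 (0.0746).

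The 15 tested enzymes of serine, glycine and folate-linked carbon transfer were higher in 4 and lower in 0, with a median of 0.10. The leading ones were Aldh18a1 (1.13) and Gpt2 (0.91), which make proline precursors and alanine, and the mitochondrial folate enzyme Mthfd2 (0.86). Of the 19 tested enzymes of methionine, cysteine and glutathione metabolism, the list nearest to Cth, 0 were higher and 3 lower: Gclc (-0.75), Gclm (-0.60) and Mat2a (-0.52), of which Gclc and Gclm form the enzyme for the rate-limiting step of glutathione synthesis. The median of this list was 0.05, close to that of all genes. The eIF2 kinases and eIF2 machinery held 1 higher (Eif2s2, 0.49) and 1 lower (Eif2b3, -0.62) of 14, and Eif2b3 lost its call without untreated replicate 1 at 4 hrs (adjusted p = 0.0884 by edgeR). Chaperones of the endoplasmic reticulum and genes of the other branches of the unfolded protein response held 0 of 20 in either direction in untreated wells. Their median was -0.03. In Activin-A wells 2 were called higher and 1 lower (3.33% and 3.63% of all genes). The counts were 0 and 2 in IFN-γ wells (4.84% and 3.57%) and 1 and 3 with both factors (3.69% and 3.42%).

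**Figure D4:**
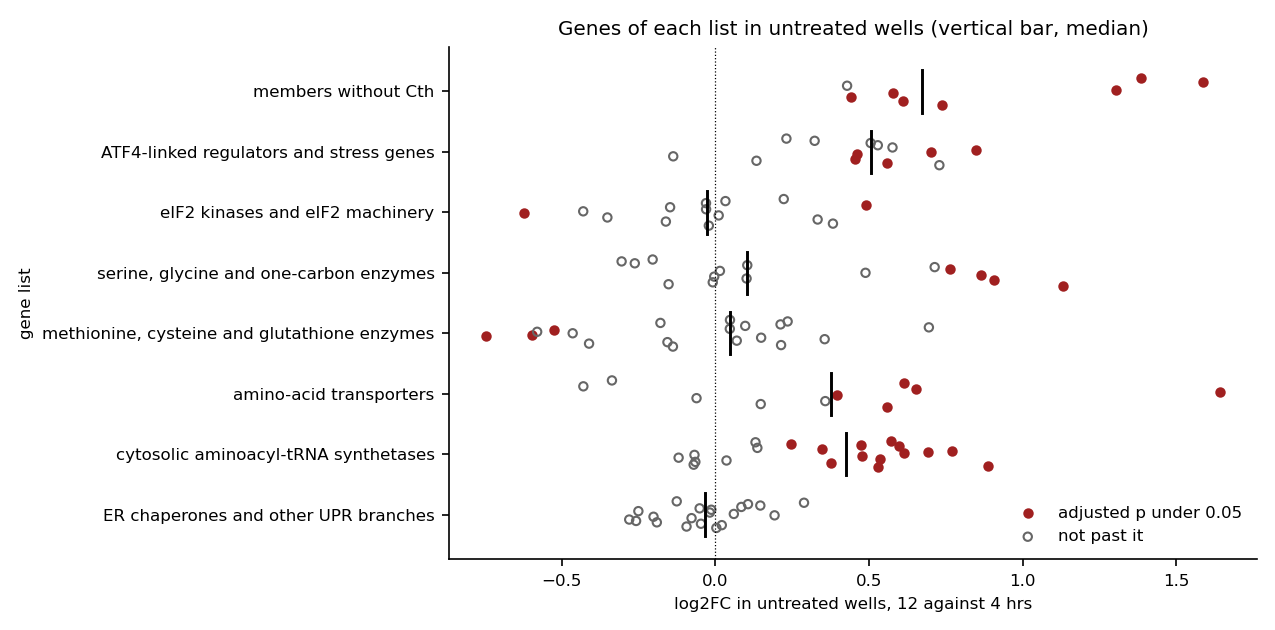
Change from 4 to 12 hrs in untreated wells (horizontal axis, log2FC) of each tested gene, by list (vertical axis). Filled points passed an adjusted p of 0.05, open points did not, and vertical bars are medians, 0.67 for the 8 members, 0.43 for tRNA synthetases and -0.03 for chaperones of the endoplasmic reticulum.

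Over the same lists the interaction of the factors was called for 0 of 110 genes at 4 hrs and 0 of 109 at 12 hrs, by edgeR, with 6 and 16 at an unadjusted p under 0.05, against 505 of 9137 and 612 of 8971 over all genes. The list medians at 12 hrs were -0.19 for ATF4-linked regulators, -0.13 for tRNA synthetases, -0.09 for amino-acid transporters, -0.02 for serine, glycine and folate-linked enzymes and for the eIF2 genes, 0.02 for chaperones and 0.08 for methionine, cysteine and glutathione enzymes, against -0.01 over all genes. At 4 hrs they ran from -0.11 to 0.09, against -0.01. The nearest to a call at 12 hrs, named after its values were seen, was Psph, the phosphatase that completes serine synthesis, at -0.77 (SE 0.18, adjusted p = 0.0652 by edgeR). Whether Psph was called depended on single wells and on the filter. It was called without untreated replicate 4 (adjusted p = 0.0140 by edgeR), IFN-γ replicate 3 (0.0112) or replicate 2 of both factors (0.0257) and in the fit without a filter (0.0156), while its adjusted p rose to 0.350 without IFN-γ replicate 1 and was 0.717 by DESeq2. Psph stood at 88.4 ± 16.6 CPM in untreated, 107 ± 3.33 CPM in Activin-A and 110 ± 32.4 CPM in IFN-γ wells and at 78.7 ± 13.4 CPM with both factors (SD, n = 4).
For IFN-γ itself at 12 hrs, 12 of the 109 tested genes of the lists were called, a share near the 9.25% of all genes. Among tRNA synthetases 3 of 20 were higher and 0 lower: Wars, known as an IFN-γ target (log2FC 4.10), Kars (0.60) and Rars (0.22). Among ATF4-linked regulators 2 of 13 were higher and 0 lower, Cebpb, a C/EBP partner of ATF4 (0.74), and Nupr1 (0.41), and among the eIF2 genes Eif2ak2, the kinase PKR, was higher (1.39). Of the 15 enzymes of serine, glycine and folate-linked carbon transfer 1 was higher, Gpt2 (0.40), and 3 were lower, the serine carrier Sfxn1 (-0.39), the cytosolic folate enzyme Mthfd1 (-0.39) and Gcsh of the glycine cleavage system (-0.36). Of the chaperone list 1 of 20 was lower, Hspa5 (-0.18), and of the methionine, cysteine and glutathione list 1 was higher, Gclm (0.37).
Wars, Kars, Cebpb, Eif2ak2, Gcsh and Gclm kept their calls whichever well was left out. Rars kept its call only without untreated replicate 3 or IFN-γ replicate 4 (adjusted p up to 0.192 by edgeR). Nupr1 lost it without untreated replicate 1 (0.0637), Gpt2 without untreated replicate 2 (0.101), Sfxn1 without untreated replicate 1 or IFN-γ replicates 2 or 3 (up to 0.152), Mthfd1 without untreated replicates 1 or 2 or IFN-γ replicates 2 or 4 (up to 0.105) and Hspa5 without untreated replicates 2 or 3 or IFN-γ replicates 1 or 2 (up to 0.126). DESeq2 did not call Rars, Gpt2, Sfxn1 or Mthfd1, and Rars was not called without a filter either (adjusted p = 0.0518 by edgeR).
For Activin-A at 12 hrs, 3 of the 109 were called (2.75%, against 2.41% of all genes). Of the 17 tested in the methionine, cysteine and glutathione list 2 were called lower, Cdo1, which oxidises cysteine (-1.26), and Sqor, which oxidises sulfide (-0.49), and Nupr1 was called higher (0.41). Cdo1 kept its call only without untreated replicate 3 or 4 (adjusted p up to 0.152 by edgeR), and Sqor only without untreated replicate 1 or Activin-A replicate 3 (up to 0.238). Nupr1 lost it without untreated replicates 1 or 3 or Activin-A replicates 3 or 4 (up to 0.137). DESeq2 called neither Sqor nor Nupr1 and gave no adjusted p for Cdo1. Sqor was also not called in the fit of all 32 wells (adjusted p = 0.0504 by edgeR).

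Genes whose 8 group means ran most like those of Cth were sought among 9323 genes. The 5 with the highest Pearson r were Sept8 (0.985), Pax6 (0.980), Cars (0.979), Dpysl2 (0.978) and Eif4ebp1 (0.975), of which Cars and Eif4ebp1 belong to the lists above. The means fall into a 4-hr and a 12-hr cluster and share their libraries, so that r mostly reflects the step in time, and 111 genes reached at least 0.9. Among the members r with Cth ran from 0.823 in Ddit3 to 0.956 in Asns over the 8 means. Over the 4 means at 12 hrs alone, too few to read a correlation from, r ran from -0.98 in Ddit3 through -0.20 in Phgdh and -0.09 in Psat1 to 0.94 in Shmt2. Cars, a cytosolic cysteinyl-tRNA synthetase, had 12-hr means of 123 ± 14.5 CPM in untreated wells, 140 ± 6.31 CPM after Activin-A, 138 ± 23.6 CPM after IFN-γ and 118 ± 9.54 CPM after the combination (SD, n = 4). Pax6 was low, with means between 10.1 and 14.2 CPM, and its groups differed less than its wells did.

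Within groups the members varied together only weakly. After removal of the group means, the 36 pairs of the 9 detected members had a median Pearson r of 0.12 over 32 wells, and 26 pairs lay above 0. The highest was Chac1 with Phgdh (0.49), followed by Cth with Psat1 (0.48) and Phgdh with Shmt2 (0.46), and the lowest r was -0.23. The points share the libraries and their depth, and several members rest on fewer than 60 counts per well, so these are descriptions without a test.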

How the data were processed

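The deposited values were read counts per gene, not normalized. Per the labels, the authors made them from paired-end BRB-seq libraries, and their processing notes name STAR 2.7.10b, featureCounts and the build GRCm39 (mm39). The handling of molecular identifiers, of strand and of reads shared by near-identical genes was not given in the sources used here. Groups were taken from the labels, 0 columns were left unused, and 14 of 12451 genes had no symbol. The 10 members and the 7 gene lists were chosen with earlier results of these data known.

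Counts were scaled by TMM and filtered by expression in edgeR 4.0.16 (R 4.3.3), fitted by quasi-likelihood over the 16 wells sharing a time (32 wells where times were compared), and adjusted by Benjamini-Hochberg over all genes at 0.05. Cth was left out of all counts of members called. Correlations used log2 CPM with a prior count of 2. Named besides the members were up to 3 called genes per list and direction by size and the 5 genes most like Cth. The pipeline was tested on simulated data. Alternatives were DESeq2 1.42.0 (the test the study used), RLE scaling, no filter, at least 10 counts in every well, a replicate block, all 32 wells, only the groups compared, a threshold of 0.01 and each well left out. A further promoter motif was searched and is not reported here.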

Additional observations from a re-analysis of the deposited data

Results flagged for a closer look

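In 5 of the 72 groups of 4 wells examined (9 genes in 8 groups) a single well lay far from the other 3, by Dixon's ratio of the gap to the range, a criterion that chance meets in about 1 in 20 groups. In wells with both factors at 12 hrs, Cth was 34.7 CPM in 1 well and 54.4 to 55.8 CPM in the others. In untreated wells at 12 hrs, Asns was 204 CPM in 1 well against 251 to 260 CPM, and Chac1 was 58.4 CPM in 1 well against 43.2 to 44.8 CPM. In Activin-A wells at 12 hrs, Chac1 was 60.03 CPM in 1 well against 38.7 to 40.7 CPM, and Phgdh was 242 CPM in 1 well against 266 to 270 CPM.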

How the results depend on the processing

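The interaction of Cth at 12 hrs stayed between -1.08 and -0.88 over the fits that left out 1 well each, and between -1.02 and -1.01 over the 6 other alternatives. Cth was chosen by this value in these same wells, so the narrow range is a description and lends the value no support. With IFN-γ at 12 hrs, the members called fell from 1 to 0 by DESeq2 and to 0 at an adjusted p under 0.01, and ran from 0 to 3 over the fits that left out 1 well. With IFN-γ at 4 hrs, they ran from 0 to 1, as they did for both factors against Activin-A at 4 hrs. All other counts of members called, the 7 of 8 between 4 and 12 hrs included, stayed within 1.5 times under every alternative run, the lowest being 5 of the 6 members tested between the times with at least 10 counts in every well. Some small values changed sign when 1 well was left out: the interaction at 12 hrs of Chac1 (-0.42 to 0.035) and Phgdh (-0.036 to 0.13), the log2FC of Cth at 4 hrs with Activin-A (-0.073 to 0.14) and with IFN-γ (-0.22 to 0.0012), and that of Trib3 for both factors against Activin-A at 12 hrs (-0.059 to 0.20). The cause was not tested.

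DESeq2 called fewer genes than edgeR overall: 84 against 150 with Activin-A at 4 hrs, 136 against 216 at 12 hrs, 44 against 74 and 61 against 92 for both factors against IFN-γ, 549 against 863 for both factors against Activin-A at 12 hrs, 284 against 457 in untreated wells over time, 410 against 650 and 501 against 785 in Activin-A and IFN-γ wells, and 1 against 2 for the Activin-A effect over time. For the interaction at 12 hrs DESeq2 called 0 genes against 1, and between 0 and 6 were called when 1 well was left out. Leaving out 1 well also moved the calls over all genes from 74 to between 47 and 72 for both factors against IFN-γ at 4 hrs (47 without replicate 4 of both factors or IFN-γ replicate 2, 49 without IFN-γ replicate 1), from 54 to between 35 and 54 for the IFN-γ effect over time (35 without untreated replicate 4 at 4 hrs), from 457 to between 302 and 374 in untreated wells over time (302 without replicate 1 at 12 hrs), from 2 to between 0 and 3 for the Activin-A effect over time, and from 0 to 1 for the interaction at 4 hrs (without Activin-A replicate 1). With only the groups compared, both factors against IFN-γ at 4 hrs gave 120 calls.

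The labels tie no wells together by number. Adding the well number to the fit as a replicate block left the members called with IFN-γ at 1 at each time and changed no call of a member. Wells with the same number did not deviate together (mean r -0.000233, against 0.0000802 for other numbers), and 6 of 32 wells correlated best with their own number. Genes with few counts (Trib3, Chac1, Ddit3 and Cth) have the widest intervals, and Cbs was too low for a fold change.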
